A study of Mus musculus with 2 samples.

Results

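The AP-1 genes and their relatives, 10 genes of the basic leucine zipper (bZIP) class, were followed in 2 total RNA libraries of mouse hematopoietic stem cells, the rare marrow cells from which all blood lineages arise. They were taken by symbol, by a rule that uses no measured value, though earlier results of these data were known. They are Fos, Fosb, Fosl1 and Fosl2 (Fos family), Jun, Junb and Jund (Jun family), and the related genes Atf3, Batf and Batf3. All 10 matched a single identifier each among the 43346 mouse gene identifiers of the tables, of which 21461 are nuclear protein coding genes. Each library was made from 100 cells of male C57BL/6J mice aged 5 to 6 weeks. The labels call the libraries biological replicates 1 and 2 of 1 group and name no treatment, so there was no second condition and no test between groups. Both carry 1 donor identifier under different biosample identifiers, and the labels do not say whether separate animals were used or how the cells were sorted. The spread between the libraries may therefore be technical in part.

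AP-1 is a dimer of bZIP proteins that binds DNA through a basic region and pairs through a zipper of leucines. Fos proteins do not form stable dimers with themselves and act with a Jun partner, whereas Jun proteins can also pair with each other. Fos, Fosb, Jun, Junb and Atf3 are known as immediate early or stress-induced genes, transcribed within minutes of a growth factor, a stress signal or the handling of cells, and their messengers are short-lived. Jund is regarded as the steadier member of the Jun family. Batf and Batf3 lack the activation domains of Fos, pair with Jun proteins and work with interferon regulatory factors in lymphoid and dendritic cells.

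Replicate 1 held 48313341 expected counts and replicate 2 held 28947093, of which 19528380 and 10411450 fell on nuclear protein coding genes. Levels are in TPM, a share of a library's transcripts after division by transcript length. Nuclear protein coding genes held 30.03% of the TPM of replicate 1 and 26.55% of that of replicate 2. Detection required 1 TPM and 10 counts. Among 12 stem cell marker genes 11 were detected in both libraries, and their levels summed to 544 TPM (replicate 1) and 387 TPM (replicate 2). Markers of mature neutrophils and monocytes summed to 7.21 TPM in replicate 1 against 347 TPM in replicate 2, so the libraries did not hold the same mix of transcripts. Of those 12 markers 2 were detected in both libraries, and Mmp8, Retnlg and Ly6g had no count in either. In pools of this kind, fewer cells of a type and less RNA per cell cannot be told apart.

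Fos and Jun were the most abundant of the members in both pools, each in the top part of the coding transcriptome, and Fosb, Jund and Junb followed at lower levels. Of the 10 members, 7 were detected in both libraries, against 45.5% of nuclear protein coding genes. Fosl1 had counts in replicate 2 alone. It falls in a wider class, genes with counts in either library but not detected in both, that held 16.5% of nuclear protein coding genes. Atf3 and Batf3 had no count in either library, as was the case for 38% of nuclear protein coding genes. The summed level of the members was 416.2 TPM in replicate 1 against 277.4 TPM in replicate 2, which is 0.139% and 0.104% of the TPM of nuclear coding genes.

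**Figure D1:**
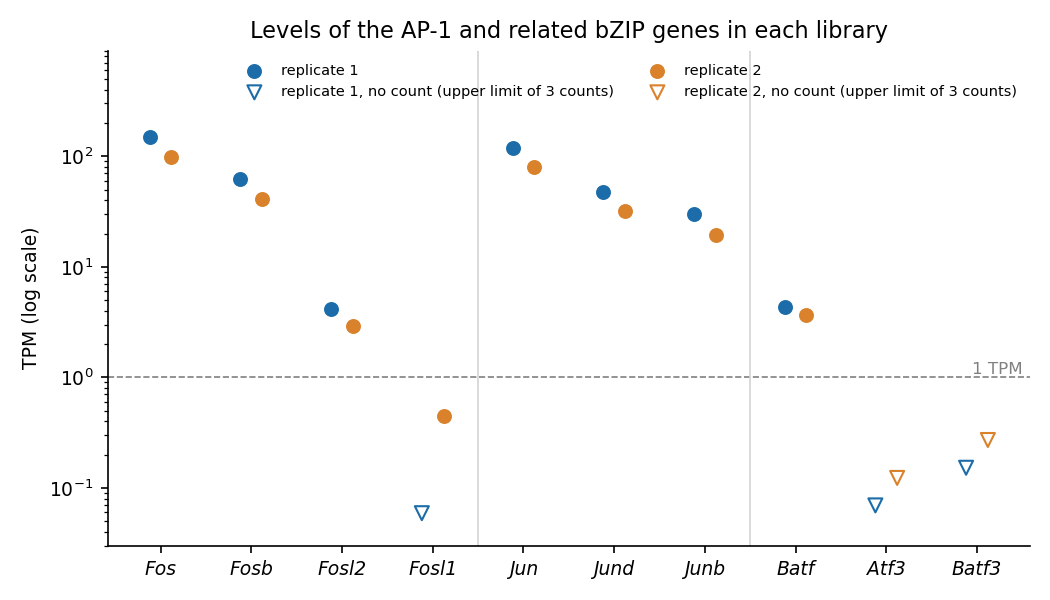
TPM of each member on a log axis, with filled points for replicate 1 (blue) and replicate 2 (orange). Open triangles stand at the upper limit of 3 counts for members with no count, and the dashed line marks 1 TPM. The 7 detected members lie above the line in both libraries and Fosl1, Atf3 and Batf3 lie below it.

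The promoters of Fos, Fosb, Jun and Junb, the immediate early members that were detected, are shown first as examples of the sequence upstream of these genes. They are the 250 bases upstream of the RefSeq start on build GRCm38.p6, written 5′ to 3′ along the gene's strand, and capitals mark TGACG (the core of a cyclic AMP response element), TGACATCA (an AP-1-like element) and TATAAA. The windows are chr12:85473640-85473889 (plus strand) for Fos, chr7:19310046-19310295 (minus strand) for Fosb, chr4:95052223-95052472 (minus strand) for Jun and chr8:84978749-84978998 (minus strand) for Junb.
Fos: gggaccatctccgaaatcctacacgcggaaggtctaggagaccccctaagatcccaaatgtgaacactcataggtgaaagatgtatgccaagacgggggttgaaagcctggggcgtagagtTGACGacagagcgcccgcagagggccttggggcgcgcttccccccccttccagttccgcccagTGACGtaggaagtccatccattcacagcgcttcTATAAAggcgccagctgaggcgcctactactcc
Fosb: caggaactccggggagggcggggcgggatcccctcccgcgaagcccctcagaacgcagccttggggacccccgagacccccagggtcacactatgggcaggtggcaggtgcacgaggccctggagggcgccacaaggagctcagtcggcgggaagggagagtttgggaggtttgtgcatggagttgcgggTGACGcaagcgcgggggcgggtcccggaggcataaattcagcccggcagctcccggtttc
Jun: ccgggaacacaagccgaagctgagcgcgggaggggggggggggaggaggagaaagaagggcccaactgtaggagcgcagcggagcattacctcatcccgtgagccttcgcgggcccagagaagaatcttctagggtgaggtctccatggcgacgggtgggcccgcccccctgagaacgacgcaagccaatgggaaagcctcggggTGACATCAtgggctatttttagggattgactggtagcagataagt
Junb: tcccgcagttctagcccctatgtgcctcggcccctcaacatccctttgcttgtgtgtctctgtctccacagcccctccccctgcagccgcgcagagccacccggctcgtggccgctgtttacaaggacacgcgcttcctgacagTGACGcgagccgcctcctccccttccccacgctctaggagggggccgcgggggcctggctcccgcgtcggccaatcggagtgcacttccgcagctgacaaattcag

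TGACG was found at -129 and -66 of Fos, at -60 of Fosb and at -106 of Junb, counting the first base of the match from the start site. Of the 9 members with a RefSeq window, 5 held TGACG on either strand (also Atf3 and Batf), and 17.8% of all 32851 windows of that length did. TGACATCA lay at -45 of Jun, where it occurs in 2.93% of all windows. The windows of Jund and Fosl2 held neither element. TATAAA lay at -33 of Fos (12.4% of all windows). None of the 9 windows held a CArG box, the element bound by serum response factor, a full TGACGTCA or the AP-1 site TGANTCA, which occur in 1.47%, 1.55% and 6.75% of all windows. GGGCGG, also searched on both strands, was in 7 of the 9 windows and in 32.7% of all. TGACGTCA contains TGACG, and a match is a run of letters, with no binding measured here, while no match says only that the letters are not in these windows. The RefSeq start of Fos and of Jun is the GENCODE M21 start of the gene. That of Junb lies 30 bases upstream of it and that of Fosb 6 bases inside the gene. The RefSeq start of Jund lies 1210 bases upstream of the GENCODE M21 start. Those of Fosl2, Atf3, Batf and Batf3 lie further inside the gene than that of Fosb. For Jund, Fosl2, Atf3, Batf and Batf3, matches and absences therefore apply to the RefSeq start alone.

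Fos, the name-giving partner of the dimer, was measured at 150.69 TPM (replicate 1) and 98.22 TPM (replicate 2; mean 124.5 ± 37.1, SD, n = 2), from 7187 and 2302 expected counts. The gene lies at chr12:85473890-85477273 on the plus strand of GRCm38. It ranked at percentile 97.7 of the detected nuclear coding genes of replicate 1 and at 96.6 of those of replicate 2.

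Fosb, which forms the same kind of dimer and is known for a truncated form that persists after stimulation, stood at 61.83 and 41.23 TPM (51.5 ± 14.6, SD, n = 2). The deposited tables hold 1 Fosb transcript where GENCODE M21 lists 7, so full-length and truncated forms were not separated. Fosl2, a Fos-related gene with a slower response, stood at 4.19 and 2.90 TPM from 770 and 301 counts. Fosl1, the other Fos-related gene, had no count in replicate 1 and 13 counts in replicate 2, a level of 0.45 TPM. A count of 0 allows up to 0.059 TPM of Fosl1 in replicate 1, for counting error only. It shares 2767 bp with Ccdc85b on the opposite strand, which had 0 and 6 counts.

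Jun, the partner most able to activate transcription, was measured at 117.63 TPM (replicate 1) and 79.51 TPM (replicate 2; mean 98.6 ± 26.9, SD, n = 2), from 11574 and 4414 counts. It ranked at percentiles 96.7 and 95.3. Jund was at 47.38 and 32.02 TPM (39.7 ± 10.9), and Junb, which often restrains Jun, at 30.14 and 19.4 TPM (24.8 ± 7.59). The values of Junb did not overlap those of Jund, and those of Jund did not overlap those of Jun.

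All 3 Jun genes overlap a gene on the opposite strand, and the sources used here do not give how the counting handled strand. Jun shares 689 bp with the antisense gene Junos, which was at 5.56 and 2.40 TPM. Jund shares 919 bp with Gm11175, at 2.59 and 0.40 TPM, and Junb shares 351 bp with Prdx2, a peroxiredoxin gene at 103 and 101 TPM. These overlaps are of GENCODE M21 gene spans. The span of Junb includes Junb-202, a transcript absent from the deposited tables. Whether the 351 bp reach the deposited Junb transcript, 1 exon of 1840 bases, was not tested. Where a shared stretch lies in counted transcripts, its reads cannot be assigned to either partner without strand. Their part in the levels of the Jun genes was not tested.

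Batf, a partner of Jun proteins, was at 4.31 and 3.67 TPM (3.99 ± 0.45, SD, n = 2) from 115 and 55 counts, near percentile 19 of the detected coding genes in both libraries (19.0 and 19.3). Its partner factor genes were at 9.33 and 12.5 TPM for Irf8, and at 0 and 8.71 TPM for Irf4. Because Batf is a gene of lymphoid and dendritic cells, the markers of those cells were read beside it. Of 9 T and NK cell markers 3 were detected in both libraries (summed level 58.4 and 65.8 TPM), and Cd3d and Cd8a had no count. Nkg7 alone held 36.2 and 55.8 TPM of that sum. Of 8 B cell markers 3 were detected in both (11.97 and 38.65 TPM). Of 8 dendritic cell markers 3 were (110.8 and 69.6 TPM), led by Cd74, H2-Ab1 and Zbtb46, while Xcr1, Clec9a and Cd209a had no count. The part of such cells in the Batf level was not tested.

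Atf3, a stress-induced member that pairs with Jun proteins, had no count in either library. The upper limit of 3 counts is 0.0694 TPM (replicate 1) and 0.123 TPM (replicate 2), for counting error only. Batf3, needed for a class of dendritic cells, likewise had none, with limits of 0.152 and 0.271 TPM. These limits are closer than the libraries bear out, above all in replicate 1. Among 1640 nuclear coding genes whose level in replicate 2 was 1 to 3 TPM, 26.1% lacked any count in replicate 1. The reverse share, over 1242 genes, was 2.58%.

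The order of the detected members was the same in both libraries: Fos, Jun, Fosb, Jund, Junb, Batf and Fosl2. Neighbours differed within a library by 1.28 and 1.24 times for Fos over Jun, by 1.90 and 1.93 times for Jun over Fosb, by 1.30 and 1.29 times for Fosb over Jund and by 1.57 and 1.65 times for Jund over Junb. The values of Fos and Jun overlapped between libraries, as did those of Fosb and Jund and those of Batf and Fosl2. The remaining neighbours did not overlap.

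Per length, Fos was the dominant gene of its family and Jun of its own in each library. With counts not divided by length, Fosb led the Fos family in both libraries, Fos holding 47.4% and 43.2% of its counts. Fos held 69.5% of the summed Fos family TPM in replicate 1 and 68.8% in replicate 2, Fosb 28.5% and 28.9%, and Fosl2 1.93% and 2.03%. Fosl1 held none of the sum in replicate 1 and 0.315% in replicate 2. Jun held 60.3% and 60.7% of the summed Jun family TPM, Jund 24.3% and 24.5%, and Junb 15.4% and 14.8%. The shares of the leading genes thus moved by less than 1 percentage point between libraries whose summed levels were 216.7 and 142.8 TPM for the Fos family and 195.1 and 130.9 TPM for the Jun family. The Fos family exceeded the Jun family 1.11 times in replicate 1 and 1.09 times in replicate 2 (log2 ratio 0.14 ± 0.02, SD, n = 2). Jun exceeded Jund 2.48 times in both.

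**Figure D2:**
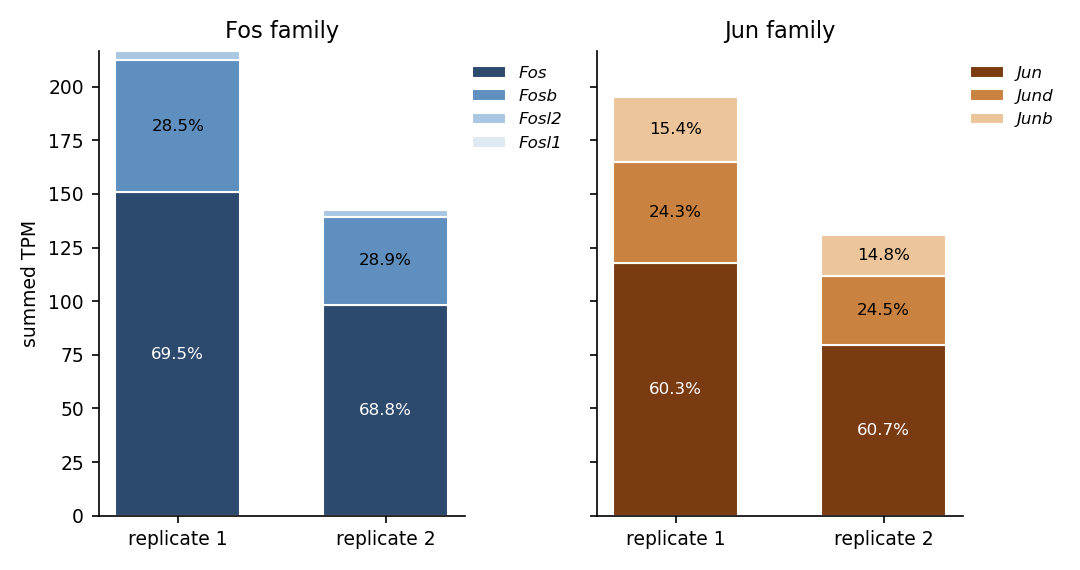
Summed TPM of the Fos family (left) and the Jun family (right) in each library, as stacked bars from 0 with the percent held by each gene. Fos and Jun hold the largest part in both libraries, and the shares are close while the sums are lower in replicate 2.

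The lead of Fos over Jun, and of the Fos family over the Jun family, rested on the transcripts to which Fos reads were assigned. Of the 4 Fos transcripts in the tables, 2 had counts. The full-length coding transcript Fos-201 (2108 bases) carried 62.0% of the Fos TPM in replicate 1 and 47.7% in replicate 2. The other, Fos-203, is a non-coding transcript of 795 bases with 38.01% and 52.29%, from 1236 and 619.8 of the expected counts. Fos-203 begins inside intron 1 of Fos-201, shares 551 bases of exons 2 to 4 with it and has 244 bases that Fos-201 lacks, at chr12:85474691-85474934 on the plus strand. Parts of that stretch also lie in Fos-202 and Fos-204, to which no count was assigned. Reads touching those bases set it apart from Fos-201, so they are shown from the GENCODE M21 transcript, with the closing AG of the intron in capitals.
Fos-203 stretch absent from Fos-201: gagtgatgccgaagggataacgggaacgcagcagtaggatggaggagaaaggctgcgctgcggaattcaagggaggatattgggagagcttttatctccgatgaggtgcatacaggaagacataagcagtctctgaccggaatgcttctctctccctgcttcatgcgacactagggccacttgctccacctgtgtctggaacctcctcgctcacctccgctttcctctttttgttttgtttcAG

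**Figure D3:**
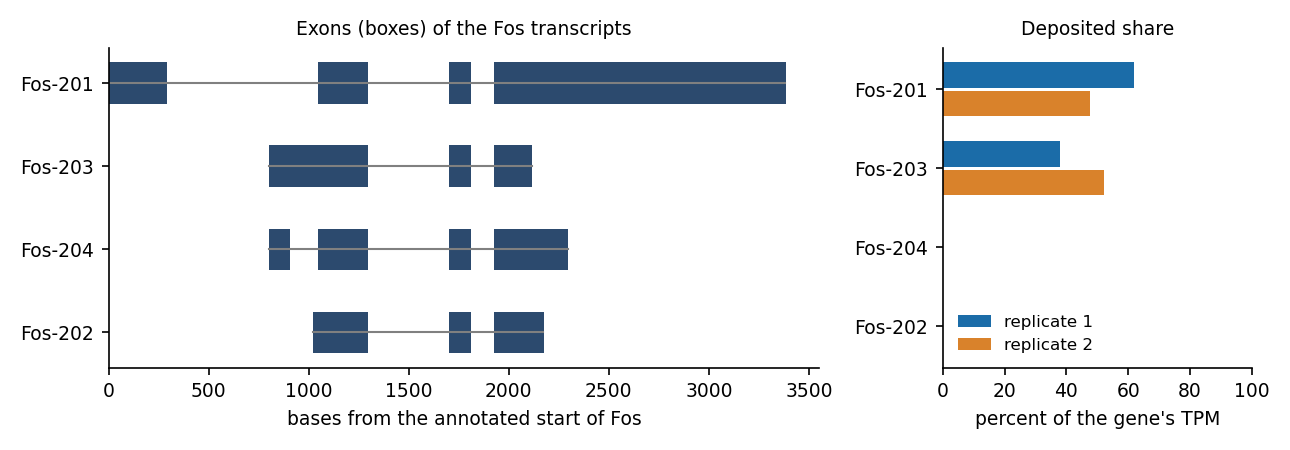
Left, exons of the 4 Fos transcripts (boxes) by distance in bases from the annotated start of the gene. Right, percent of the gene's TPM assigned to each transcript in replicate 1 (blue) and replicate 2 (orange). Fos-203 carries 38.01% and 52.29%, and Fos-202 and Fos-204 carry none.

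With all Fos counts divided by the length of Fos-201 alone, a setting added after the transcript values were seen, Fos stood at 112.8 and 64.1 TPM (88.5 ± 34.4, SD, n = 2). Fos was then 0.959 times Jun in replicate 1 and 0.807 times in replicate 2, so Jun was the higher gene in both. The log2 ratio of the families became -0.13 in replicate 1 and -0.27 in replicate 2, while Fos kept 63.1% and 59.0% of its family. Total RNA holds unspliced transcripts as well as messengers. Whether the counts assigned to Fos-203 came from that transcript or from unspliced Fos RNA was not tested.

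The level of Jund rested on its model in the same way. The deposited model has 2878 bases and starts where RefSeq starts the gene, whereas GENCODE M21 gives 1668 bases and a start 1210 bases downstream. With all Jund counts divided by the shorter length, also set after the lengths were compared, Jund came to 84.5 TPM (replicate 1) and 57.2 TPM (replicate 2). Any counts from the other 1210 bases were not taken out, so these values are upper limits for the shorter model. At these limits Jund passed Fosb but stayed below Jun, which exceeded it 1.39 times in each library. The log2 ratio of the families was then -0.10 and -0.13.

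All 7 detected members were higher in replicate 1 than in replicate 2, under TPM and each of 6 other settings of unit, pseudocount or scaling. So were 58.3% of the 9769 nuclear coding genes detected in both libraries, a share that fell to 47.1% when TPM was rescaled to nuclear coding genes. None of these 7 members was past a 2-fold difference on the log2(TPM + 1) scale, which understates differences of low genes. Of the 9769 coding genes 15.4% were, 10.1% toward replicate 1 and 5.35% toward replicate 2 (8.6% and 9.34% after rescaling). Fosl1, not detected, differed by -0.54 and was past 2-fold toward replicate 2 under 3 of the 6 other settings (a pseudocount of 0.1, rescaled TPM and DESeq2 size factors). The differences (replicate 1 minus replicate 2) were 0.61 for Fos, 0.61 for Junb, 0.57 for Fosb, 0.56 for Jun, 0.55 for Jund, 0.41 for Fosl2 and 0.19 for Batf. The median of the 7 was 0.56, beside 0.12 over the 9769 genes, and with 1 library on each side no test of a difference was possible. After rescaling, the median over all these genes moved to -0.04, and the 6 Fos and Jun family genes lay between 0.33 and 0.45.

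The 6 Fos and Jun family genes thus lay close together in TPM. Their TPM ratios ran from 1.44 (Fosl2) to 1.55 (Junb), and the SD of their differences was 0.07, against 0.72 over the 9769 genes. By class of mean TPM that SD was 0.39 (100 and over), 0.68 (10 to 100) and 0.78 (under 10). The 6 genes spread wider with TMM (0.39 to 0.71) and with DESeq2 size factors (0.41 to 0.70), Fos being the highest in both. The members' closeness was noticed in these values and carries no test. Differences of at least 0.4 toward replicate 1, a bound also set after seeing the members, were found in 27.2% of coding genes of 100 TPM and over, the class of Fos. The shares were 33.6% at 10 to 100 TPM, the class of Jun, Fosb, Jund and Junb, and 30.6% under 10 TPM, the class of Fosl2. In those classes, in the same order, the upper quartile of the differences lay at 0.41, 0.56 and 0.53. The share past 2-fold in either direction was 3.89%, 13.7% and 19.2%, and the share higher in replicate 1 by any amount was 68.4%, 62.1% and 51.6%.

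Counting error was small for the abundant members. As a share of nuclear coding counts, Jun was 1.398 times as abundant in replicate 1 as in replicate 2 (95% exact binomial interval 1.35 to 1.45, for counting error only). Fosb was at 1.42 times (1.35 to 1.48), Jund at 1.398 (1.32 to 1.48), Junb at 1.47 (1.34 to 1.62) and Fosl2 at 1.36 (1.19 to 1.56). Fos stood higher on this scale, at 1.66 times (1.59 to 1.75), since its counts are not divided here by a length that differed between the libraries. The interval of Batf included equality (1.11 times, 0.802 to 1.57). For 6 of the 7 detected members the interval lay above 1, as it did for 40.8% of coding genes detected in both libraries. It lay below 1 for none of the 7 and for 38.7% of those genes.

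**Figure D4:**
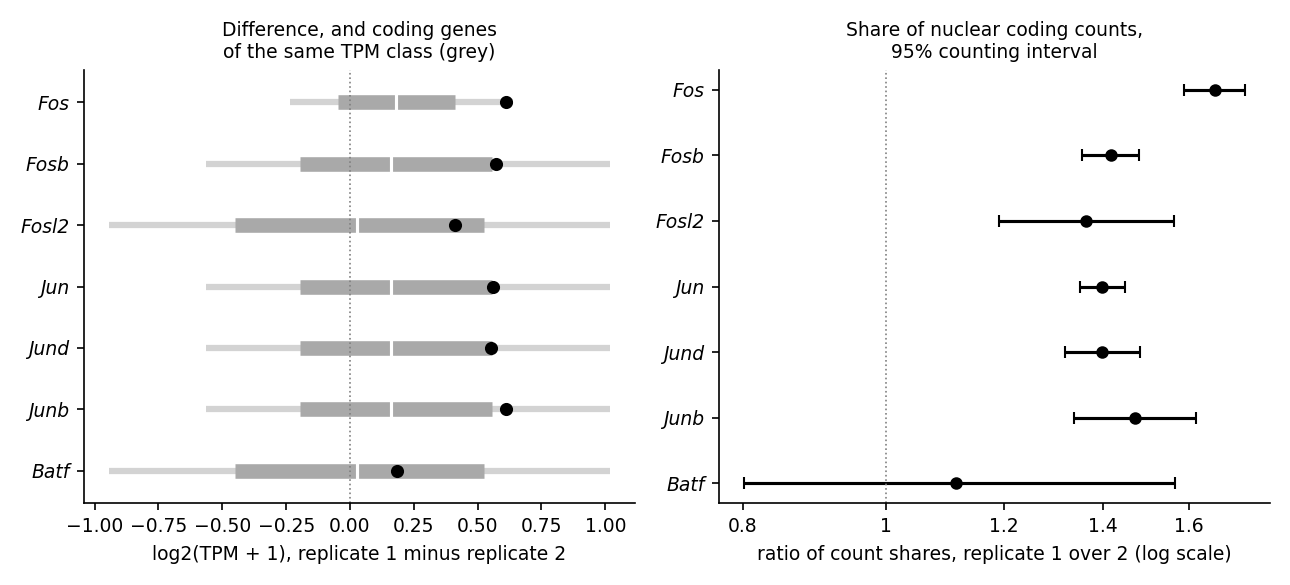
Left, difference in log2(TPM + 1) of each detected member (black points), over the central 80% (light grey) and central 50% (dark grey) of coding genes in the same class of mean TPM, with their median in white. Right, ratio of the share of nuclear coding counts in replicate 1 over replicate 2 on a log axis, with 95% counting intervals; the interval of Batf alone spans 1.

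Genes that act above and beside AP-1 were read from lists, with the same 2-fold bound. Among coding genes detected in either library, 23.3% were past it, 11.2% higher in replicate 1 and 12.1% in replicate 2, and 54.9% were higher in replicate 1 by any amount. Other immediate early genes had 9 of 15 detected in both libraries, 8 of them higher in replicate 1, with a median difference of 0.77 (7 of 9 and 0.67 after rescaling). Of the 15, 3 were over 2-fold higher in replicate 1 and 1 in replicate 2. Myc, which drives growth and division, was at 287 and 172 TPM, and Egr1, a zinc finger factor, at 93.5 and 43.0 TPM. Ier2 was at 45.6 and 25.3 TPM, and the nuclear receptor gene Nr4a2 at 21.5 and 5.35 TPM. Among the inducible genes, Npas4, Cyr61 and Ctgf had no count in either library, as Atf3 had none.

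Several feedback genes of the pathway were abundant. Of 9 phosphatase and messenger decay genes 8 were detected in both, with a median difference of 0.65 (0.47 after rescaling), and 2 of the 9 were over 2-fold higher in replicate 1. Zfp36, whose protein binds AU-rich messengers such as that of Fos and speeds their decay, stood at 231 and 122 TPM. Its relative Zfp36l2 stood at 121 and 77.3 TPM, the MAP kinase phosphatase gene Dusp1 at 168 and 106 TPM, and Dusp5 at 15.8 and 7.27 TPM.

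The kinases that signal to AP-1 were mostly detected and showed no common direction. Of 15 MAP kinase cascade genes 14 were detected in both libraries, 9 of these higher in replicate 1, with a median difference of 0.17 (7 of the 14 after rescaling). Mapk14, which encodes the kinase p38 alpha, was at 59.2 and 59.8 TPM, and Map2k2 was at 56.6 and 53.7 TPM. Mapk8, which encodes the Jun kinase JNK1, was over 2-fold higher in replicate 1 (31.8 and 15.3 TPM), and Mapk3, which encodes ERK1, in replicate 2 (11.1 and 26.5 TPM). All 6 genes of serum response factor and its cofactors were detected in both, with a median difference of 0.26 (0.11 after rescaling), led by Elk4 (77.8 and 66.0 TPM), Mkl1 (33.4 and 26.8 TPM) and Elk3 (21.4 and 14.8 TPM).

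Other bZIP genes that can pair with Fos or Jun proteins, or compete for their sites, were mostly detected, and the 3 most abundant of them lay between Jun and Junb. Of 20 such genes 15 were detected in both libraries, with a median difference of 0.24 that turned to -0.06 with TMM and -0.10 with DESeq2 size factors, and 2 were over 2-fold higher in each library. Nfe2, an erythroid and megakaryocytic factor, was at 71.4 and 78.1 TPM, Atf7 at 61.6 and 62.3 TPM and the Jun partner gene Atf2 at 68.8 and 39.7 TPM. Creb1, whose protein binds cyclic AMP response elements, was at 64.1 and 29.6 TPM, and Bach2, a repressor of AP-1 sites in lymphoid cells, at 15.8 and 5.87 TPM.

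**Figure D5:**
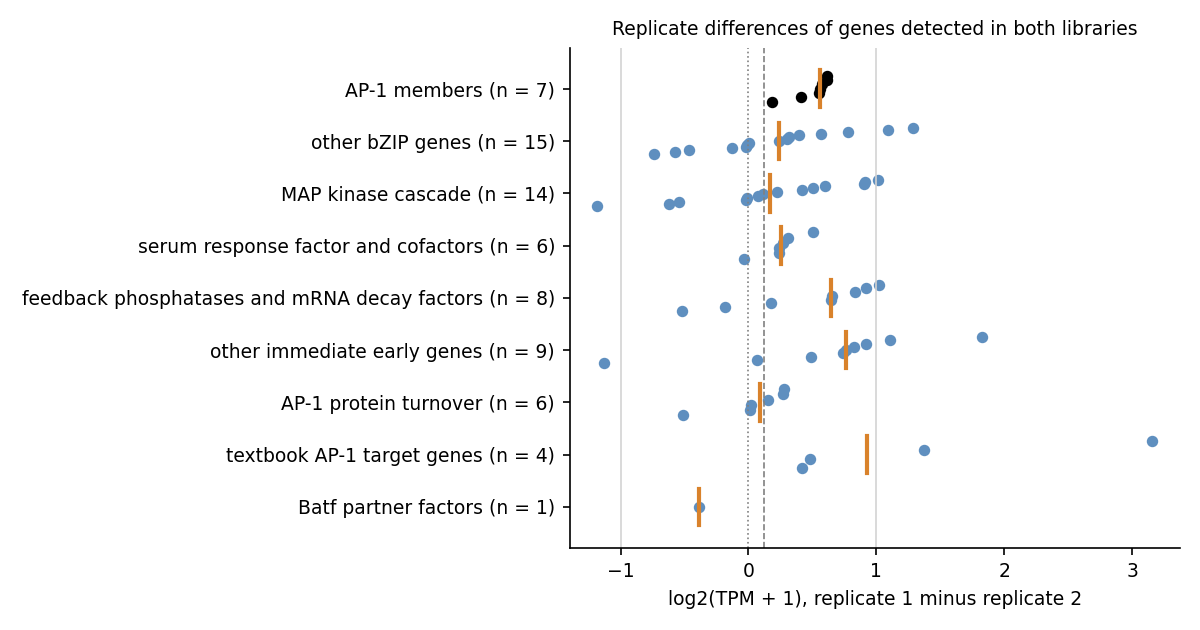
Difference in log2(TPM + 1), replicate 1 minus replicate 2, of the genes of each list detected in both libraries, 1 point per gene, with the list's median in orange. The dotted line is 0, the dashed line the median of coding genes (0.12) and the pale lines a 2-fold difference; the members lie between 0.19 and 0.61.

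Beside these differences, early myeloid markers summed to 508 TPM in replicate 1 against 1531 TPM in replicate 2, and 6 of the 8 were over 2-fold higher in replicate 2. Of the 12 neutrophil and monocyte markers, 8 were over 2-fold higher in replicate 2, the opposite direction to the AP-1 genes. Of the 2 detected in both libraries, 1 was higher in replicate 1. Among coding genes detected in either library, 12.1% were over 2-fold higher in replicate 2. Stem cell markers had 3 of 12 over 2-fold higher in replicate 1, beside 11.2% of the same coding genes, and 0 in replicate 2. Of the 11 detected in both, 7 were higher in replicate 1 (median difference 0.39). That share was 58.3% over coding genes detected in both libraries, with a median difference of 0.12. Of the 9 erythroid markers, all detected in both libraries, none was past 2-fold, and their sums were 2391 and 2144 TPM. The part of these markers' cells in the AP-1 levels was not tested.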

How the data were processed

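Total RNA was sequenced from 2 libraries of 100 cells each. Expected counts and TPM were deposited by the authors per gene and per transcript, as were FPKM, a posterior mean TPM and each transcript's percent of its gene's TPM. The column names are those RSEM writes, per the file headers, and the text deposited with each sample gives build mm10 and GENCODE M4. The sources used here do not give the aligner, program versions or strand handling.

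Lengths, including each row's effective length in bases, are those deposited by the authors. Rows that name no gene held 0.012% and 0.00719% of counts and were left out. Symbols matched 98% of the identifiers (42462), and positions and biotypes are from GENCODE M21 (GRCm38). Promoter windows are from RefSeq (GRCm38.p6). All 10 members were matched, and 9 had a promoter.

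Differences are log2(TPM + 1). Counting intervals are exact binomial (95%) on counts rounded to whole numbers, over nuclear coding counts, and a count of 0 has an upper limit of 3 counts. Both cover counting error only, because PCR copies of a molecule were not told apart. Scaling alternatives used TMM (edgeR 4.0.16) and size factors (DESeq2 1.42.0), run with R 4.3.3. The remaining scripts used pandas 2.3.3, scipy 1.17.1, numpy 2.4.6 and matplotlib 3.10.9 under Python 3.11.15. Of their steps, the difference, the 2-fold call and the counting interval were tested on simulated counts. A planned comparison of bZIP protein sequences was not run. The members and lists were chosen with earlier results of these data known. Named were all members and, per list, the 3 genes of highest mean TPM and up to 3 more past 2-fold with a mean of at least 10 TPM; genes without a count were named after their values were seen. A gene that this rule names is not reported here.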

Additional observations from a re-analysis of the deposited data

How the results depend on the processing

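All 7 detected members stayed higher in replicate 1 under each of 6 other settings. The median difference of coding genes moved from 0.12 with TPM to -0.04 with TPM rescaled to nuclear coding genes and -0.01 with TMM, and the members' median from 0.56 to 0.39 when rescaled. The summed level was 225.1 in FPKM and 1215 as rescaled TPM, against 346.8 TPM. Of the 10 members, Fosl1 passed 2-fold with a pseudocount of 0.1, rescaled TPM or DESeq2 size factors (1 member each, higher in replicate 2). With expected counts not divided by length, Fos held 45.3% of its family, Fosb leading in both libraries, and Jun 66.6% of its own, and the log2 ratio of the families was -0.26. With all Fos counts divided by the length of the full-length transcript it was -0.20 and Fos held 61.0%, and Fos differed by 0.81 in place of 0.61. With all Jund counts divided by the length of the shorter model the ratio was -0.11 and Jun held 50.8%. These follow from the lengths used. No paired analysis was possible because there is 1 group. Leaving out a replicate gave 7 detected members each time. At this depth the counting interval of Batf included equality of the libraries.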

Other observations

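Of 14 genes known as AP-1 targets, 4 were detected in both libraries, beside 45.5% of nuclear protein coding genes. No count in either library was found for 6 of the 14, beside 38% of those genes, among them Mmp3, Mmp13 and Il6. Vim, an intermediate filament gene, was at 106 TPM (replicate 1) and 78.7 TPM (replicate 2), and Cd44, an adhesion receptor gene, at 87.8 and 62.6 TPM. Ccnd1, which encodes cyclin D1, was at 48.6 and 4.57 TPM, the widest difference of the 4 detected in both (3.15 on the log2(TPM + 1) scale). Its expected counts, 543 and 235, lay closer together, so most of that TPM difference came with the transcript lengths to which its reads were assigned.

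Genes whose products mark AP-1 proteins for degradation or modify them were detected in both libraries, 6 of 6, with a median difference of 0.09 that turned to -0.09 with TPM rescaled to nuclear coding genes, and none past 2-fold. The ubiquitin ligase gene Rfwd2, also called Cop1, was at 83.9 and 75.4 TPM, Itch at 23.8 and 19.6 TPM and Cops5 at 19.1 and 18.8 TPM.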
